A study of Mus musculus with 6 samples.

Results

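Cells that load their endoplasmic reticulum (ER) with more protein than it can fold switch on the unfolded protein response, and 10 genes of that response and of the integrated stress response were followed here in mouse liver. The genes were chosen by name, with earlier results of these data known. They were Hspa5, Hsp90b1, Dnajb9 and Herpud1, which fold or clear ER proteins, and the transcription factor genes Xbp1, Atf4, Ddit3 and Creb3l3. Also among them were Trib3 and Asns, which lie downstream of ATF4. These members are 10 of the 18419 genes with any count and all 10 were among the 13431 genes tested. The study asked how METTL14, a subunit of the enzyme complex that places N6-methyladenosine on RNA, shapes liver metabolism in obesity. All 6 mice were Mettl14f/f males that went on a high fat diet (HFD) at 8 weeks of age, and after 10 weeks of feeding received a vector through the tail vein. Livers were taken 8 weeks later for RNA sequencing. Of these, 3 mice received AAV8-TBG-GFP (genotype tag WT) and 3 received AAV8-TBG-Cre (genotype tag METTL14 KO), so that the floxed alleles and the diet were common to both groups. The TBG promoter is active in hepatocytes, which means that Mettl14 in the other liver cells was not targeted, and whole liver RNA holds both.

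The ER responds to unfolded protein through the sensors IRE1 (gene Ern1), PERK (gene Eif2ak3) and ATF6. IRE1 cuts a short stretch out of Xbp1 mRNA, and the spliced form encodes an active factor for chaperone and ER-associated degradation genes. PERK, and other kinases that sense amino acid shortage, viral RNA or haem deficiency, phosphorylate eIF2 alpha, which slows translation in general while ATF4 is made in larger amounts from existing mRNA, and ATF4 in turn induces Ddit3, Trib3 and Asns. Hepatocytes secrete most plasma proteins, and the liver has in addition CREB3L3 (CREBH), an ER-bound factor released by cleavage that acts on genes of lipid metabolism.

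The stretch that IRE1 removes is shown because the deposited transcripts separate the 2 forms of Xbp1. In NCBIM37, the mouse build whose GENCODE transcripts were at hand, it lies at chr11:5424282-5424307 on the plus strand, in exon 4 of 5 of Xbp1-001. It covers nucleotides 815 to 840 of that transcript, inside the coding sequence. Capitals mark the 26 bases that are present in the unspliced and missing from the spliced transcript. Since the sequence repeats at the ends, 7 placements of the gap are equivalent, and the one shown leaves a G before each CAG.
Xbp1-001, unspliced: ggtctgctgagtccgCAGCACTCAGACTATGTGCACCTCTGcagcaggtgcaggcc
Xbp1-201, spliced: ggtctgctgagtccgcagcaggtgcaggcc
Because 26 leaves a remainder of 2 when divided by 3, the reading frame changes after the junction. The annotated coding sequence had 268 codons in the unspliced and 372 in the spliced transcript, stop codon included.

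Promoter letters were compared with short motifs known for this response, in the 250 bases before each RefSeq gene start (GRCm38.p6, both strands). The ER stress response element (ERSE, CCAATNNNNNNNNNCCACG), a site for ATF6 and the factor NF-Y, was found in 0.113% of the 32851 such windows. It was present once before Hspa5 and 2 times before Hsp90b1. ERSE-II (ATTGGNCCACG), found in 0.0304% of windows, was present before Herpud1. CARE (TGATGNAA), the composite element read by ATF4 with C/EBP partners, was found in 3.45% of windows and was present before Herpud1 and Asns. The UPRE letters TGACGTGG, found in 0.563% of windows, were in none of the members' windows, and the windows of Xbp1, Atf4, Ddit3, Trib3, Dnajb9 and Creb3l3 held none of the 4 motifs. The promoters that held one are printed with the matches in capitals, each 5′ to 3′ in the direction of the gene.
Hspa5, chr2:34771840-34772089, plus strand, ERSE beginning 65 bases before the start: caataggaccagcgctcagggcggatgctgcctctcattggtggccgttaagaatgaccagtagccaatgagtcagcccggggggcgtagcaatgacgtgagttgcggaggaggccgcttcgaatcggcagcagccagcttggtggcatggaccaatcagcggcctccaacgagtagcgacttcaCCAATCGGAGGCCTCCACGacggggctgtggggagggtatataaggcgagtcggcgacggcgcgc
Hsp90b1, chr10:86705445-86705694, minus strand, ERSE beginning 212 and, on the opposite strand, 107 bases before the start: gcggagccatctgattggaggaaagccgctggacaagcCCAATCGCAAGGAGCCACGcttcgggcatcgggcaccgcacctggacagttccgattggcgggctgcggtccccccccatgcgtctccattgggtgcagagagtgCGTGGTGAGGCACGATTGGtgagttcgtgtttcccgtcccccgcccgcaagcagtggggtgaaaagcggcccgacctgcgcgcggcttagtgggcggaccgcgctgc
Herpud1, chr8:94386179-94386428, plus strand, CARE on the opposite strand beginning 112 and ERSE-II beginning 52 bases before the start: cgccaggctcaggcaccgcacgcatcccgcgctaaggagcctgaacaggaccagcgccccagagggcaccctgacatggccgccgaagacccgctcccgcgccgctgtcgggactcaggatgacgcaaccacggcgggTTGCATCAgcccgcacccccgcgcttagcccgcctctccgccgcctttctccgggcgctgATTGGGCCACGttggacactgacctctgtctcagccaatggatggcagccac
Asns, chr6:7693210-7693459, minus strand, CARE beginning 23 bases before the start: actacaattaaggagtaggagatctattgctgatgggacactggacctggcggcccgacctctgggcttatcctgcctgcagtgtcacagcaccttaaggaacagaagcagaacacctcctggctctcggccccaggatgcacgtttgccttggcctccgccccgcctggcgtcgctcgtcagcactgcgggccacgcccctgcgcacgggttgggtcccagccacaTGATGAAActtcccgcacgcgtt
A match is a description of the letters only. Only these exact letters were searched, in 250 bases, so a window without a match does not show that a gene lacks such an element.

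The libraries held 20356440 to 21010508 expected counts. Mettl14, the targeted gene, was measured at 6.3, 6.43 and 5.81 CPM (counts scaled to a common library size) in AAV8-TBG-GFP livers and at 4.96, 5.38 and 4.86 CPM in AAV8-TBG-Cre livers. The ranges did not overlap, but the log2 fold change of -0.29 ± 0.15 (SE) had an adjusted p of 0.337 in edgeR, so the groups are given as labelled. By immunoblot, the study reported substantially less METTL14 in livers of HFD-fed males after AAV8-TBG-Cre, at an earlier time. That is protein, whereas the values here are RNA of the whole gene in whole liver. The 9 hepatocyte markers summed to 85184 to 119130 CPM per library. Summed cholangiocyte markers were 72.2 to 128 CPM in the 3 AAV8-TBG-GFP and 306 to 574 CPM in the 3 AAV8-TBG-Cre livers. Of these, 8 of 8 tested were higher by vector (at least 1.2-fold and unadjusted p under 0.05, edgeR). Of all genes, 12.0% were higher and 8.41% lower by that measure. Macrophage and Kupffer cell markers summed to 214 to 249 and 332 to 524 CPM (6 of 9 higher), and stellate cell and fibroblast markers to 239 to 366 and 467 to 972 CPM (4 of 9 higher). In the other lists, the tested markers higher and lower by vector were 1 and 1 of 9 for hepatocytes and 0 and 1 of 8 for endothelial cells. They were 1 and 1 of 4 for T and NK cells, 2 and 0 of 3 for B and plasma cells, and 2 and 1 of 4 for neutrophils. No marker in any of the 8 cell type lists was at 0 in all libraries. The part of these other cells in the stress gene values was not tested, and in whole liver fewer cells of a type and less RNA per cell cannot be told apart. The library names come in 2 forms, which neither the labels nor the study's methods explain. GFP 1, GFP 2 and Cre 1 (replicate numbers) have a short name and GFP 3, Cre 2 and Cre 3 a long one. Values by form of name are given beside those by vector, since several stress genes separated by it. That comparison was chosen after the data were seen.

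The genes differed widely in level when counts were set per transcript length as FPKM (fragments per kilobase of transcript, scaled to library size). In AAV8-TBG-GFP livers, Herpud1 was at 375 ± 84.9 FPKM (mean ± SD, n = 3), Hsp90b1 at 289 ± 42.1 FPKM, Hspa5 at 208 ± 98.1 FPKM and Creb3l3 at 186 ± 14 FPKM. Neighbours among these 4 overlapped in their libraries. Xbp1 followed at 81.2 ± 16.2 FPKM, apart from its neighbours on both sides. Atf4 at 56.5 ± 14.1 FPKM and Dnajb9 at 34.7 ± 15.6 FPKM overlapped. Ddit3 at 9.78 ± 7.01 FPKM, Trib3 at 2.92 ± 0.94 FPKM and Asns at 0.747 ± 0.965 FPKM were the lowest, and Ddit3 was separate from Trib3, and Trib3 from Asns. Thus Herpud1, the chaperone genes Hsp90b1 and Hspa5 and the liver-enriched Creb3l3 led, and the ATF4 targets were the least abundant.

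None of the 10 genes passed the edgeR test by vector. At the study's threshold, which asks for at least 1.2-fold and an unadjusted p under 0.05, edgeR called 0 of the 10 members, against 20.5% of all genes tested, of which 12.0% were higher and 8.41% lower in AAV8-TBG-Cre livers. By an adjusted p under 0.05 it called 0 of 10 members and 0.931% of all genes. No member had an unadjusted p under 0.05 in edgeR, and DESeq2 also gave 0 by either measure. On FPKM, limma called 2 members higher at the unadjusted threshold (Trib3 and Xbp1) in each of 3 settings, and edgeR with the replicate number as a block called 2 (Dnajb9 and Trib3), with 0 by adjusted p in all of these. The AAV8-TBG-GFP and AAV8-TBG-Cre libraries overlapped for 10 of 10 members, whereas 27.0% of all genes did not overlap. The median log2 fold change of the members was 0.22 and that of all genes -0.0065. Single mice moved the count of members called. It was 4 without GFP 3 (Ddit3, Dnajb9, Hspa5 and Trib3), 2 without Cre 1 (Ddit3 and Hspa5), 1 without GFP 1 (Asns) and 1 without Cre 2 (Xbp1), and no member had an adjusted p under 0.05 in any of these fits.

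Several of the members separated instead by form of the library name. This split was taken up after these values were seen. The shares and p-values by form, here and below, therefore describe it and are no independent test. In the edgeR fit with vector and form as terms, 5 of 10 members (Hspa5, Dnajb9, Herpud1, Ddit3 and Trib3) were higher in the long-named libraries at the same threshold, against 8.11% of all genes, and 0 were lower, against 7.79%. By adjusted p, Ddit3, Dnajb9 and Hspa5 were higher, 3 of 10 members against 0.752% of all genes, and 0 were lower, against 0.640%. All 3 long-named libraries exceeded all 3 short-named ones for Hspa5, Dnajb9, Ddit3 and Trib3, 4 of 10 members against 10.4% of all genes. The reverse held for 0 members against 11.2%. The median log2 difference of the members was 0.53 and that of all genes 0.013, and 8 of 10 members had a positive difference. The calls by adjusted p depended on the libraries. They numbered 0 without GFP 2 and 0 without Cre 1, 1 (Ddit3) without GFP 1, GFP 3 or Cre 3, and 2 (Ddit3 and Dnajb9) without Cre 2. Without the vector term 1 (Ddit3) was left.

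**Figure D1:**
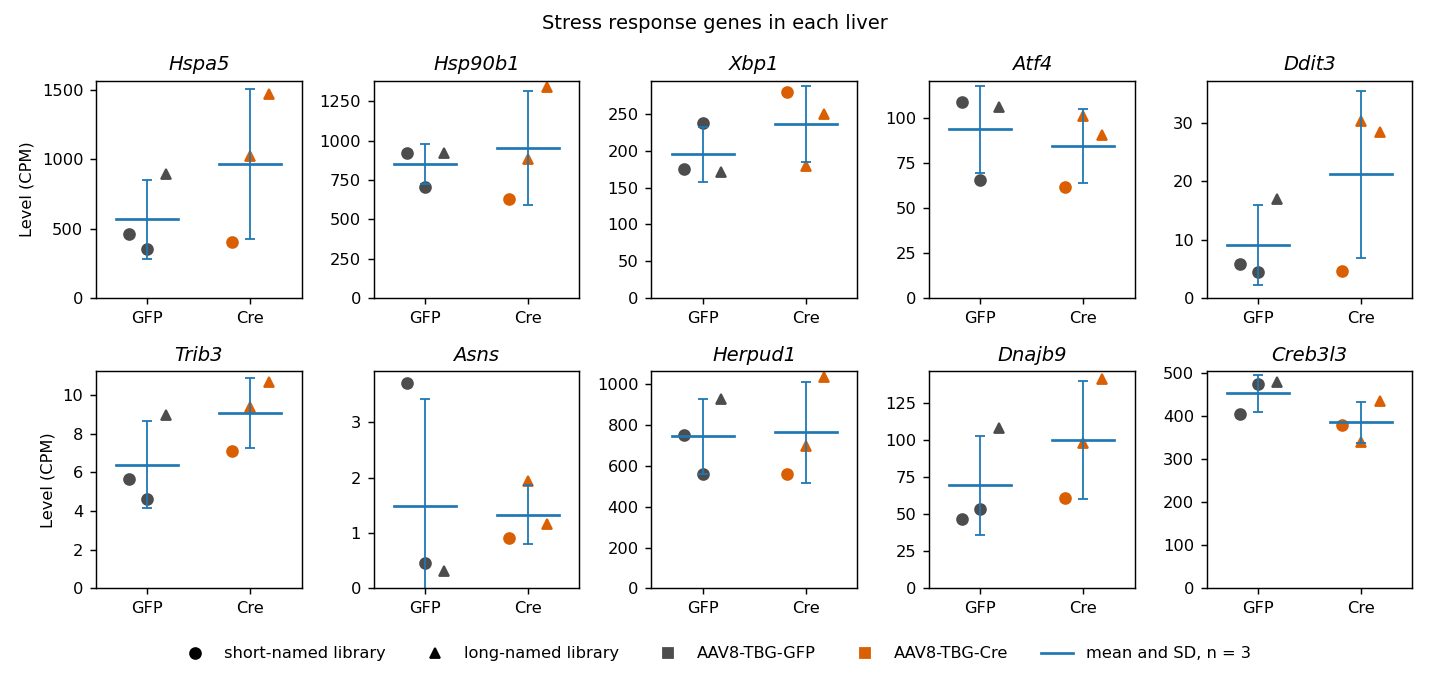
Level of each of the 10 genes in each liver, in CPM on linear axes that start at 0, with the AAV8-TBG-GFP mice on the left (grey) and the AAV8-TBG-Cre mice on the right (orange). Circles are short-named and triangles long-named libraries, and blue lines give the mean and SD of each group (n = 3). The groups overlap in all 10 panels, and the triangles lie above all circles for Hspa5, Ddit3, Trib3 and Dnajb9.

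Hspa5 (gene ID 14828, chr2:34772090-34776529 in GRCm38.p6) encodes BiP, the ER HSP70 chaperone that also holds the sensors inactive. It was measured at 459, 354 and 893 CPM in GFP 1, 2 and 3 and at 403, 1022 and 1474 CPM in Cre 1, 2 and 3. The 3 high values were those of GFP 3, Cre 2 and Cre 3, the long-named libraries, and the vector groups overlapped. The log2 fold change by vector was 0.77 ± 0.50 (SE, adjusted p = 0.432, edgeR), and it was 0.24 with the form of name as a covariate. Within the short-named libraries (2 GFP, 1 Cre) the log2 ratio of Cre over GFP was -0.011 and within the long-named ones (1 GFP, 2 Cre) it was 0.48. Long-named libraries exceeded short-named ones 2.61-fold (log2 1.38 ± 0.23, adjusted p = 0.0433, edgeR), at 1130 ± 305 against 405 ± 52.5 CPM. That adjusted p rose to between 0.0507 and 0.259 when any 1 library was left out, with log2 differences of 1.12 to 1.63.

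Hsp90b1 (gene ID 22027, chr10:86690841-86705444) encodes GRP94, the ER HSP90 chaperone. Its level was 924, 705 and 924 CPM in the AAV8-TBG-GFP livers and 632, 886 and 1342 CPM in the AAV8-TBG-Cre livers. Both the lowest and the highest value were in AAV8-TBG-Cre libraries. By vector the log2 fold change was 0.16 ± 0.28 (adjusted p = 0.781, edgeR). It was -0.37 among short-named and 0.27 among long-named libraries, and the difference by form was 0.50 ± 0.25 (adjusted p = 0.379, edgeR).

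Dnajb9 (gene ID 27362, chr12:44205897-44210068) encodes ERdj4, a BiP co-chaperone and a target of spliced XBP1. It was at 46.7, 53.4 and 108 CPM in GFP 1, 2 and 3 and at 61.2, 98 and 141 CPM in Cre 1, 2 and 3. Again the 3 long-named libraries were above the 3 short-named ones. Its log2 fold change by vector was 0.53 ± 0.38 (adjusted p = 0.479, edgeR) and within forms it was 0.29 and 0.15. By form of name the fold was 2.05 (log2 1.04 ± 0.16, adjusted p = 0.0351, edgeR). Over the fits that left out 1 library the log2 difference was 0.92 to 1.14, and the adjusted p was 0.0539 to 0.214 except without Cre 2, where the call stayed.

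Herpud1 (gene ID 64209, chr8:94386429-94395371) encodes an ER membrane protein of the degradation machinery. Its CPM were 750, 560 and 929 in the AAV8-TBG-GFP and 560, 696 and 1038 in the AAV8-TBG-Cre livers. The groups had nearly the same mean, 746 ± 184 and 765 ± 246 CPM. Between vectors the log2 fold change was 0.035 ± 0.28 (adjusted p = 0.959, edgeR). By form it was 0.57 ± 0.21 (unadjusted p = 0.0315, adjusted p = 0.245, edgeR), and GFP 1 at 750 CPM lay above Cre 2 at 696 CPM.

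Xbp1 (gene ID 22433, chr11:5520641-5525993) behaved differently from its chaperone targets in total level. It was at 176, 238 and 172 CPM in the AAV8-TBG-GFP livers and at 281, 180 and 250 CPM in the AAV8-TBG-Cre livers. The highest value came from Cre 1, a short-named library, and the lowest from GFP 3, a long-named one. The log2 fold change by vector was 0.28 ± 0.20 (adjusted p = 0.487, edgeR), with 0.44 and 0.32 within the short-named and long-named libraries. By form of name the log2 difference was -0.33 ± 0.18 (adjusted p = 0.418, edgeR).

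The 2 Xbp1 transcripts in the files, NM_013842 with 2264 nucleotides (unspliced) and NM_001271730 with 2238 (spliced), differ in length by the 26 bases shown in capitals above. The spliced transcript took 9.46% of Xbp1 counts in GFP 1 (95% exact binomial interval 8.5 to 10.5%), 6.21% in GFP 2 (5.54 to 6.95%) and 34.3% in GFP 3 (32.7 to 35.9%). In AAV8-TBG-Cre livers it took 12.5% in Cre 1 (11.6 to 13.3%), 38.9% in Cre 2 (37.4 to 40.3%) and 31.5% in Cre 3 (30.3 to 32.8%). These intervals cover counting error only, and only fragments that reach the 26 bases or the junction tell the forms apart, so that they are too narrow. The share was 34.9 ± 3.71% in the long-named and 9.38 ± 3.12% in the short-named libraries (SD, n = 3 each), a gap of 25.5 percentage points without overlap. By vector it was 16.7 ± 15.4% in AAV8-TBG-GFP and 27.6 ± 13.6% in AAV8-TBG-Cre livers. The difference of 11 points had p = 0.3 in a two-sided exact permutation test (0.533 after Benjamini-Hochberg adjustment over 4 transcript shares), and 3 against 3 cannot go below 0.1. Among short-named libraries the share was 7.84% in AAV8-TBG-GFP and 12.5% in AAV8-TBG-Cre livers, and among long-named ones 34.3% and 35.2%. In CPM, the spliced transcript was at 22.1 ± 11.2 in short-named and 69.1 ± 10 in long-named libraries, a ratio of 3.12, while the unspliced transcript was at 209 ± 45.1 and 131 ± 34.4, a ratio of 0.627. Thus the total of Xbp1 and its spliced part ordered the libraries differently.

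**Figure D2:**
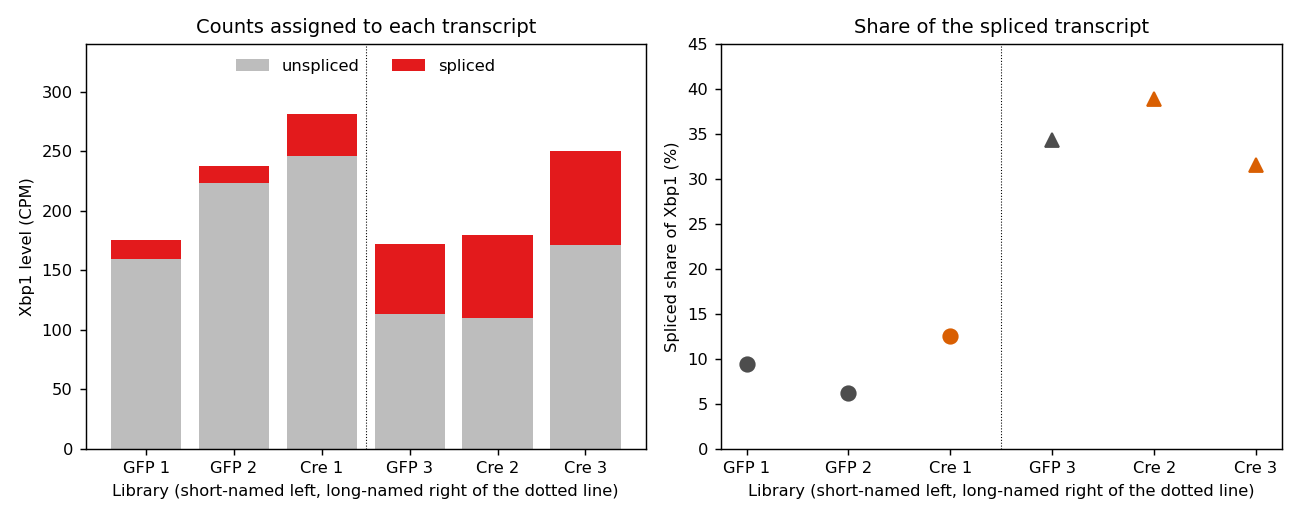
Left, Xbp1 level per library in CPM (bars from 0), split into the unspliced (grey) and spliced (red) transcript. Right, the spliced share in percent, grey for AAV8-TBG-GFP and orange for AAV8-TBG-Cre. The 3 short-named libraries, left of each dotted line, lie at 6.21 to 12.5%, and the 3 long-named ones at 31.5 to 38.9%, with both vectors on each side.

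Transcript shares of the 3 other members with several transcripts were computed in the same way. For Hspa5 the share of NM_001163434 (2534 nucleotides) was 92.4 ± 1.96% in AAV8-TBG-GFP and 90.8 ± 3.34% in AAV8-TBG-Cre livers (exact permutation p = 0.6, n = 3 each). It was 93.6 ± 0.694% in short-named and 89.6 ± 2.15% in long-named libraries, which did not overlap. How often transcript shares of other genes separate by form was not computed, for this gene or for Xbp1 above. For Atf4, NM_001287180 took 60.1 ± 5.09% and 56 ± 3.51% by vector (exact permutation p = 0.4, n = 3 each). The Ddit3 transcript NM_001290183 ranged from 0 to 84.3% between libraries, so its share by vector (35.9 ± 42.2% and 4.49 ± 7.79%, exact permutation p = 0.2, n = 3 each) has little precision.

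Atf4 (gene ID 11911, chr15:80255184-80257545) is controlled mainly at translation, which these data do not measure. Its mRNA was at 109, 65.8 and 106 CPM in the AAV8-TBG-GFP livers and at 61.6, 101 and 90.7 CPM in the AAV8-TBG-Cre livers. GFP 2 and Cre 1 were the low libraries, 1 of each vector. By vector the log2 fold change was -0.15 ± 0.24 (adjusted p = 0.77, edgeR) and the difference by form 0.46 ± 0.21 (adjusted p = 0.323, edgeR).

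Ddit3 (gene ID 13198, chr10:127290793-127296291) encodes CHOP, a factor linked to cell death under prolonged ER stress. It had 5.74, 4.39 and 16.9 CPM in GFP 1, 2 and 3 and 4.63, 30.4 and 28.5 CPM in Cre 1, 2 and 3. The short-named libraries lay below 6 CPM and the long-named ones above 16 CPM, whichever the vector. The log2 fold change by vector, 1.24 ± 0.72, was the largest among the members but had an adjusted p of 0.377 in edgeR, and it was 0.40 with the form of name as a covariate. Within short-named libraries it was -0.13 and within long-named ones 0.80. By form the fold was 4.56 (log2 2.19 ± 0.23, adjusted p = 0.0184, edgeR), at 25.3 ± 7.31 against 4.92 ± 0.723 CPM. Without GFP 2 the adjusted p was 0.068 and without Cre 1 it was 0.0758, with log2 differences of 2.17 and 1.72.

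Trib3 (gene ID 228775, chr2:152337425-152344060) encodes a pseudokinase induced by ATF4 and CHOP. It was at 5.64, 4.64 and 8.95 CPM in the AAV8-TBG-GFP livers and at 7.11, 9.41 and 10.7 CPM in the AAV8-TBG-Cre livers. The vector groups overlapped, since GFP 3 lay above Cre 1, and the 3 long-named libraries were the highest. Its log2 fold change by vector was 0.50 ± 0.27 (adjusted p = 0.34, edgeR) and within forms 0.47 and 0.17. By form it was 0.65 ± 0.17 (unadjusted p = 0.00572, adjusted p = 0.117, edgeR).

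Asns (gene ID 27053, chr6:7675165-7693209), asparagine synthetase, had the lowest counts of the members. GFP 1, 2 and 3 held 73, 9 and 6 counts, and Cre 1, 2 and 3 held 19, 47 and 24 counts. GFP 1 held the most, at 3.71 CPM, and GFP 3 the fewest, at 0.314 CPM. Between vectors the log2 fold change was -0.16 ± 0.84 (adjusted p = 0.935, edgeR), and without GFP 1 it was 1.77 (adjusted p = 0.226, edgeR). By form it was -0.71 ± 1.07 (adjusted p = 0.792, edgeR), and the sign by vector turned with GFP 1.

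Creb3l3 (gene ID 208677, chr10:81084329-81098872) varied least. It was at 404, 475 and 480 CPM in the AAV8-TBG-GFP livers and at 379, 340 and 436 CPM in the AAV8-TBG-Cre livers. Cre 3 lay between the AAV8-TBG-GFP values. The log2 fold change by vector was -0.23 ± 0.15 (adjusted p = 0.425, edgeR), with -0.21 and -0.31 within forms, and the difference by form was 0.08 ± 0.15 (adjusted p = 0.846, edgeR), at 419 CPM in each.

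**Figure D3:**
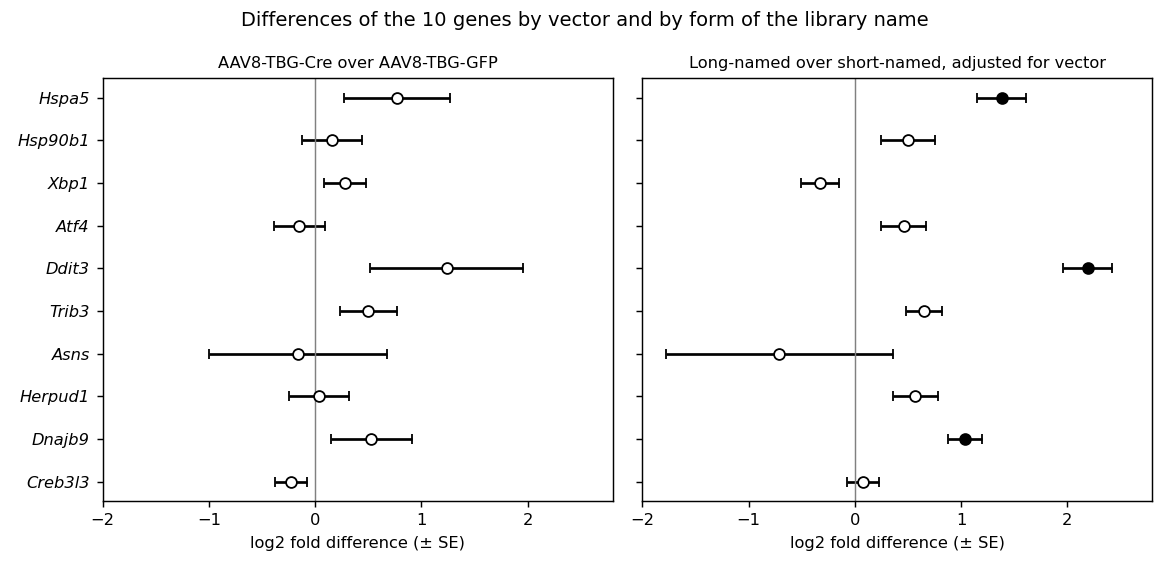
Log2 fold differences from edgeR for the 10 genes, with an SE derived from the F statistic of the test. Left, by vector (AAV8-TBG-Cre over AAV8-TBG-GFP), and right, by form of the library name (long over short, with vector as a term). Filled points, Hspa5, Ddit3 and Dnajb9 on the right, have an adjusted p under 0.05, and no point on the left is filled.

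The remaining genes of the pathway, 117 tested of 119 in 5 lists, were read in the same fits. By vector, 7 were higher and 7 lower at the unadjusted threshold, against 12.0% and 8.41% of all genes. None had an adjusted p under 0.05 in edgeR, where 15 had an unadjusted p under 0.05, and 6 had an adjusted p under 0.05 in DESeq2. Without Cre 1 edgeR called 16 higher and 13 lower, with 6 by adjusted p. The median log2 fold change was -0.055. By form of name, 21 were higher and 4 lower, against 8.11% and 7.79% of all genes, with 3 and 2 by adjusted p and a median of 0.094. The libraries did not overlap by form for 18 of these 117 genes in the upward and 4 in the downward direction, against 10.4% and 11.2% of all genes.

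Of 22 sensors and transducers, 3 were higher (Eif2ak3, Creb3l1 and Creb3l2) and 1 lower (Atf6) by vector, a share near the 20.5% of all genes called in either direction. By form, 4 were higher and 0 lower, against 8.11% and 7.79% of all genes, with a median log2 difference of -0.029. Eif2ak3, the PERK gene, was at 14.8, 14.2 and 19.5 CPM in GFP 1, 2 and 3 and at 16.7, 27.2 and 30.9 CPM in Cre 1, 2 and 3, with a log2 fold change of 0.62 ± 0.23 (adjusted p = 0.191, edgeR). It too was higher in all long-named than in all short-named libraries (log2 0.61, adjusted p = 0.0685, edgeR). Atf6 fell by 0.36 on the log2 scale (unadjusted p = 0.0126, adjusted p = 0.134, edgeR), from 92.1 ± 6.25 to 71.8 ± 6.32 CPM. For Ern1, the IRE1 gene, the log2 value was -0.26, under the 1.2-fold limit (adjusted p = 0.185, edgeR). Creb3l2, an ER-bound relative of Creb3l3, was higher by 0.46 (unadjusted p = 0.0146, adjusted p = 0.141, edgeR). Creb3l1 (0.97, unadjusted p = 0.0422, edgeR) is named after its value was seen, as the third of the genes called higher.

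Among 20 further ER chaperone and folding genes, 0 were higher by vector, against 12.0% of all genes, and 1, against 8.41%, the BiP exchange factor gene Sil1, was lower (log2 -0.37, unadjusted p = 0.0428, adjusted p = 0.223, edgeR). By form, 5 of 20 were higher and 0 lower, against 8.11% and 7.79% of all genes, with a median log2 difference of 0.23 and 15 of 20 positive. The cytoprotective factor gene Manf was at 54.4, 35.7 and 104 CPM in the AAV8-TBG-GFP and at 50.7, 128 and 197 CPM in the AAV8-TBG-Cre livers. It was higher by form (log2 1.44, adjusted p = 0.0452, edgeR), and had 0.95 ± 0.52 by vector (adjusted p = 0.349, edgeR). Dnajc3, which inhibits eIF2 alpha kinases, had -0.31 by vector (adjusted p = 0.355, edgeR). Creld2, Hyou1, Pdia4 and Dnajb11 were the other genes higher by form, at log2 values of 1.83, 1.35, 1.01 and 0.50, and are named after their values were seen.

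Of 31 degradation and translocation genes, 0 were called in either direction by vector, against 20.5% of all genes. By form, 7 were higher and 0 lower, against 8.11% and 7.79% of all genes, with a median log2 difference of 0.12. Syvn1, the ubiquitin ligase HRD1, was at 89.8, 92.4 and 212 CPM in the AAV8-TBG-GFP and at 89.8, 247 and 396 CPM in the AAV8-TBG-Cre livers. Its short-named libraries lay within 3 CPM of each other and its long-named ones above 200 CPM (log2 1.53 by form, adjusted p = 0.0337, edgeR). By vector it had 0.90 ± 0.54 (adjusted p = 0.392, edgeR). Selenos, a selenoprotein of the same machinery, had 0.36 by vector (adjusted p = 0.41, edgeR) and 0.53 by form (unadjusted p = 0.00544, adjusted p = 0.113, edgeR). The signal recognition particle receptor gene Srpra had -0.24 by vector (adjusted p = 0.369, edgeR).

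Of 35 ATF4 and CHOP targets tested, 4 were higher and 5 lower by vector, against 12.0% and 8.41% of all genes, and 0 passed by adjusted p in edgeR. The factor gene Cebpb fell by 0.65 on the log2 scale (adjusted p = 0.0735, edgeR), with 251, 231 and 256 CPM in the AAV8-TBG-GFP and 187, 139 and 145 CPM in the AAV8-TBG-Cre livers. Gdf15, a stress hormone, was at 35.5, 17.1 and 44.4 CPM in the AAV8-TBG-GFP and at 9.54, 17 and 9.34 CPM in the AAV8-TBG-Cre livers (log2 -1.43 ± 0.37, adjusted p = 0.0948, edgeR). The groups of both genes were separate, for Gdf15 narrowly (GFP 2 against Cre 2). Shmt2, a mitochondrial enzyme of serine and glycine metabolism, fell by 0.61 on that scale (unadjusted p = 0.0112, adjusted p = 0.128, edgeR). Cth, which makes cysteine, rose from 215 ± 8.5 to 430 ± 191 CPM (log2 1.00, unadjusted p = 0.0101, adjusted p = 0.122, edgeR). The cystine transporter gene Slc7a11 had at most 0.153 CPM in the AAV8-TBG-GFP livers and 0.477, 7.23 and 0.674 CPM in the AAV8-TBG-Cre livers. These were 3, 3 and 2 counts against 10, 176 and 14, so it passed the low-count filter only through the AAV8-TBG-Cre livers. Its log2 fold change of 4.31 (unadjusted p = 0.00948, adjusted p = 0.12, edgeR) took most of its size from Cre 2. For this gene, which is among the 4 called higher, these values are a description and no independent test. Fgf21, a hormone under ATF4 and CREB3L3, was at 11.8, 4.69 and 20.3 CPM in the AAV8-TBG-GFP and at 2.39, 14.9 and 8.76 CPM in the AAV8-TBG-Cre livers, with overlap (log2 -0.49, adjusted p = 0.72, edgeR). By form, 4 of 35 targets were higher and 4 lower, against 8.11% and 7.79% of all genes, with a median log2 difference of 0.15 and 23 of 35 positive. Chac1, a glutathione-degrading enzyme induced through ATF4 and CHOP, was lower in long-named libraries (log2 -1.56, adjusted p = 0.0184, edgeR), with 3.14 to 4.19 CPM against 8.94 to 11 CPM, opposite to Ddit3. The glycine transporter gene Slc6a9 was also lower by form (log2 -0.88, adjusted p = 0.047, edgeR). It was among the 5 targets called lower by vector as well (log2 -0.97, unadjusted p = 0.0229, adjusted p = 0.169, edgeR).

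CREB3L3 targets in liver were called in neither direction by vector, 0 of 10, against 20.5% of all genes. The lipid droplet gene Cidec was at 49.7, 38.7 and 53.3 CPM in the AAV8-TBG-GFP and at 8.35, 14.1 and 40.6 CPM in the AAV8-TBG-Cre livers (log2 -1.17 ± 0.51, unadjusted p = 0.0508, adjusted p = 0.241, edgeR), and Cre 3 overlapped the AAV8-TBG-GFP group. Hamp, the iron hormone hepcidin, had a log2 value of 0.92 (adjusted p = 0.254, edgeR) and Crp, an acute phase protein, -0.38 (adjusted p = 0.288, edgeR). By form, 2 of 10 were higher, against 8.11% of all genes, Fgf21 (log2 1.73, unadjusted p = 0.00458, adjusted p = 0.107, edgeR) and Insig2, which retains SREBP factors in the ER (log2 0.80, adjusted p = 0.0353, edgeR).

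**Figure D4:**
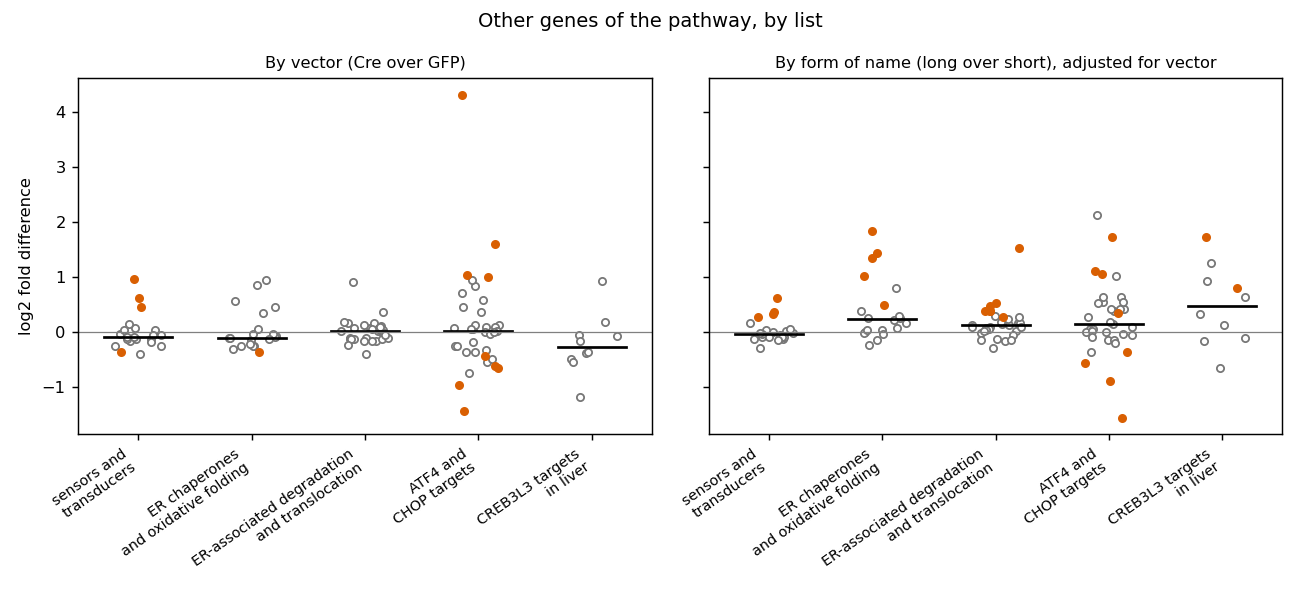
Log2 fold difference of each of the other pathway genes from edgeR, grouped by list, by vector (left) and by form of the library name (right). Each point is 1 gene, orange where the unadjusted p is under 0.05 and the fold at least 1.2, and black lines are list medians. By vector the orange points lie on both sides of 0. By form they lie only above 0 in every list except the ATF4 and CHOP targets.

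Markers of other cell types were set beside the form of name. By form, 6 of 8 endothelial markers were lower in long-named libraries and 0 were higher, against 7.79% and 8.11% of all genes. They summed to 188 to 216 CPM in long-named and 234 to 305 CPM in short-named livers. Of the cholangiocyte markers 2 of 8 were higher and 0 lower by form, and of the macrophage and Kupffer cell markers 1 of 9 was higher and 2 lower. In the remaining lists 0 were called in either direction. Summed hepatocyte markers were 85184 to 119130 CPM in long-named and 97044 to 103937 CPM in short-named libraries. The B and plasma cell markers, whose cells use spliced XBP1, summed to 6.75 to 19.9 CPM in long-named and 7.37 to 15.3 CPM in short-named libraries. Their part in the values by form of name was not tested, nor was that of whatever the names stand for.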

How the data were processed

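Liver RNA of 6 mice, 1 library each, was sequenced on a DNBseq platform. The authors deposited expected counts and FPKM per transcript for each library and a table of FPKM per gene. The submitters' processing notes name HISAT2, Bowtie2, RSEM and mm10, whereas the methods of the study list STAR for alignment, HTSeq for counting and DESeq2; neither gives versions. The expected counts were summed per NCBI gene ID and rounded here (20356440 to 21010508 per library). edgeR 4.0.16 (R 4.3.3) tested them by its quasi-likelihood test after TMM scaling and filterByExpr, with vector as the only term and Benjamini-Hochberg adjustment over 13431 genes. CPM are TMM-scaled. A gene was called at an unadjusted p under 0.05 and a fold of at least 1.2, and separately at an adjusted p under 0.05. Log2 ratios within a form of name are of mean CPM, with no test. A second fit held vector and form of library name. FPKM columns mapped to no sample numbered 0. Alternatives used DESeq2 1.42.0, limma 3.58.1 on log2(FPKM + 1) or log2(FPKM + 0.1) of the deposited FPKM (genes with at least 0.5 FPKM in at least 3 libraries), other filters, and fits without each library. Fits were tested on simulated data with changes of 1.5 on the log2 scale. Of the genes with an adjusted p under 0.05, 8.11% were false calls in edgeR, 16.3% in DESeq2 and 7.14% in limma. The fits recovered 85.0%, 90.0% and 86.7% of the changed genes. The largest difference of a member by vector, that of Ddit3, was 1.24, and the simulated data held no split by form of name. The recovery therefore does not describe the members.

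The members and lists were chosen with earlier results of these data known. Named besides the members were Mettl14, in each list the genes with adjusted p under 0.05 or the 3 smallest p-values (5 for ATF4 and CHOP targets), and Eif2ak3, Ern1, Atf6 and Fgf21. Genes named for their difference by form were picked after their values were seen. Each library is 1 mouse. Strandedness is not given in the sources used here, so overlapping genes could share counts. Deviations of same-numbered libraries of the 2 groups had correlations of 0.00915, -0.263 and 0.209. GFP 2 and Cre 1, both short-named, had 0.309. Such few values cannot settle whether the numbers pair mice, and the main fit used no pairing. Promoter letters came from RefSeq (GRCm38.p6; 10 of 10 members matched) and Xbp1 transcript sequence from GENCODE on NCBIM37.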

Additional observations from a re-analysis of the deposited data

How the results depend on the processing

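No member reached an adjusted p under 0.05 by vector in any of the 15 alternatives (14 for Asns, not tested at 10 counts or more in every library). Hspa5, Xbp1, Ddit3, Trib3, Dnajb9 and Creb3l3 kept their sign in all of theirs. Hsp90b1 (-0.048) and Herpud1 (-0.16) turned negative with the form of name as a covariate. Atf4 was 0.014 in each of the 3 limma fits. Asns turned positive, at 0.27 with the form covariate, 0.11, 0.55 and 0.11 in limma with a pseudocount of 1, of 0.1, and of 1 without the filter. Leaving out 1 library gave -0.17 to 0.39 for Hsp90b1, -0.35 to 0.033 for Atf4, -0.64 to 1.77 for Asns and -0.25 to 0.22 for Herpud1. The limma fits at these pseudocounts with the filter placed the median of all genes at 0.11 and 0.14, and called Trib3 and Xbp1 (2, 2 and 2 members higher). The cause was not tested for any of these.

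The fit with the replicate number as a block called 2 members higher (Dnajb9 and Trib3), gave 0.44 for Asns, and over all genes gave 1 higher and 6 lower by adjusted p. The numbers share no mouse, and the correlations of same-numbered libraries ran from -0.263 to 0.209.

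Over all genes, 65 higher and 60 lower by adjusted p became 748 and 409 in DESeq2 and 235 and 137 without the low-count filter. They became 28 higher at 10 counts or more, 120 lower with the form covariate, and 10 and 12, 15 and 12, and 5 and 4 in the 3 limma fits. At the unadjusted threshold 1129 lower became 365, 376 and 364 in limma and 407 at 1.5-fold. Without single libraries the counts were 1108 to 2018 higher and 735 to 1712 lower, or by adjusted p 0 to 576 and 0 to 352. The members called higher were then 0 to 4. The other pathway genes (7 and 7) were 4 to 16 higher and 4 to 13 lower, and were 11 lower with the form covariate, 11 and 11 higher in limma with the filter, 4 lower in limma without it and 4 lower at 1.5-fold.

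By form of name, 4 to 6 members were higher without single libraries, and 0 to 2 by adjusted p. Without the vector term 1 was, and Creb3l3 was at -0.0017. Asns by form ran from -2.72 to 0.78. Without 1 library the vector difference of the Xbp1 share was 5.34 to 19.8 points and that of the Hspa5 share -3.14 to 0.17. Asns had 6 to 73 counts per library, a range that the AAV8-TBG-GFP livers alone spanned at like depth.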
